A study of Homo sapiens with 6 samples.

Results

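BCL2 proteins decide whether the outer membrane of the mitochondrion stays intact when a cell is damaged. The effectors BAX, BAK1 and BOK form the pores that release cytochrome c, the BH3-only proteins BAD, BID, BBC3 (PUMA), PMAIP1 (NOXA) and BCL2L11 (BIM) sense stress and switch the effectors on or neutralise their inhibitors, and the guardians BCL2L1 (BCL-XL) and MCL1 hold both classes in check. In kidney tubule cells this system is a well-known route by which cisplatin, a platinum drug that crosslinks DNA, kills the cell. The 10 genes named here were taken by symbol from the 18969 gene rows of the deposited RNA sequencing table. All 10 had a row and all 10 passed the filter on low counts: 3 effectors, 5 BH3-only genes and 2 guardians.

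The libraries came from HK-2, an immortalised human cell line derived from the proximal tubule of the kidney, and every culture had received cisplatin at 20 µM. There were 3 control libraries, labelled wild type (controls 1 to 3), and 3 libraries labelled overexpression of Nfe2l1 (overexpression libraries 1 to 3). NFE2L1 encodes a transcription factor of the CNC class that switches on proteasome genes. The sources used here do not give the time of exposure, the overexpression construct or any vector control. Nothing in the labels says whether the 3 libraries of a group came from separate cultures, so a p-value here reflects library-to-library spread that may be technical. No library without cisplatin was analysed here, so every value is a level under the drug.

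Before any comparison, the label itself was checked. NFE2L1 stood at 50.2, 54.5 and 54.2 FPKM (fragments normalised to transcript length and library depth) in controls 1 to 3, and at 48.5, 140.0 and 69.4 FPKM in overexpression libraries 1 to 3. Overexpression library 1 was below all 3 controls in FPKM and inside their range in depth-normalised counts, so the groups overlapped. The log2 fold change was 0.86 ± 0.35 (SE), with an adjusted p of 0.115 in edgeR's quasi-likelihood test and p = 0.30 in an exact two-sided permutation test, whose smallest possible p is 0.10. Without overexpression library 1 the log2 fold change was 1.14 with an adjusted p of 0.0286, and without overexpression library 2 it was 0.25. Each direction given here is therefore for the libraries labelled overexpression.

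The depth was 16865460 to 23458333 counted reads per library. Of 8 proximal tubule markers, 4 were measured, with a summed level of 0.498 to 0.675 FPKM in controls and 0.378 to 0.677 FPKM in the libraries labelled overexpression, and AQP1, SLC34A1 and SLC5A2 were each near 0. The epithelial genes KRT8, KRT18, KRT19 and EPCAM summed to 836 to 926 FPKM in controls and 1081 to 1377 FPKM in the other group, and KRT18 had a log2 fold change of 0.62 (adjusted p = 0.0207), or 0.11 (adjusted p = 0.708) with an adjustment for length and GC content. The fibroblast genes COL1A1 and PDGFRB summed to at most 1.93 FPKM in any library. The remaining markers listed for these types, and those for leukocytes and endothelium, were not analysed here. The part of these differences in the results for BCL2 genes was not tested.

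The promoters of the 3 family members called higher between groups are shown. With the adjustment for length and GC content none of the 3 passed, and whether their transcription changed was not tested. RefSeq's promoter table for GRCh38.p14, with windows of 250 bases before to 50 bases after a gene's start, matched 9 of the 10 genes, with MCL1 the exception. Capitals mark the core of the CNC antioxidant response element, TGACNNNGC, or the E-box CACGTG, both searched on both strands. In BAX the CNC core overlaps the second E-box, so the capitals there form a single run. The windows, 5′ to 3′, are BAX at chr19:48954625-48954924 on the plus strand, BOK at chr2:241558495-241558794 on the plus strand and BAD at chr11:64284655-64284954 on the minus strand.
BAX: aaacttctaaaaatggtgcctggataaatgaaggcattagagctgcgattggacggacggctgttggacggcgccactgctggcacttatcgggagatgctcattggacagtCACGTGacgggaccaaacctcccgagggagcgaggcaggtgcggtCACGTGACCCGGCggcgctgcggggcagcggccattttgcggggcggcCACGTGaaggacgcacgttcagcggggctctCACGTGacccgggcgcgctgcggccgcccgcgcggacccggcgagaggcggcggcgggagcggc
BOK: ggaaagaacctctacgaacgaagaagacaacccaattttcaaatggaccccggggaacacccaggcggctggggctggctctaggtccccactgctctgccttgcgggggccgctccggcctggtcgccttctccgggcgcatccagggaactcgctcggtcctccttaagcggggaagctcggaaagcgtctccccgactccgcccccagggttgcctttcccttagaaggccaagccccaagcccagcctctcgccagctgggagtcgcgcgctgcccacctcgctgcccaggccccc
BAD: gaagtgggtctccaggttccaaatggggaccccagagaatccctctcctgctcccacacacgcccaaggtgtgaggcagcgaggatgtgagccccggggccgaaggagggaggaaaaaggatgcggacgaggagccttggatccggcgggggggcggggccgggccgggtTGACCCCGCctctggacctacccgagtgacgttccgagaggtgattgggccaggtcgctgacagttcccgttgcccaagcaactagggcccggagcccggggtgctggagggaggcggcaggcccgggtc

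BAX carries 4 E-boxes in this window, whose first bases lie 138, 93, 45 and 14 bases before the start, and 1 CNC core. The BAD window holds 1 CNC core, whose first base lies 80 bases before the start, and the BOK window holds neither motif. Of all 35116 promoter windows, 13.3% hold the CNC core and 7.26% hold the E-box. The 9 genes with an entry have 15 windows, of which 4 hold the CNC core and 4 the E-box. Windows of the same gene can overlap, so the BAD core and the BID E-box are each counted more than once. Among the 9 genes with an entry, the CNC core was also found in BCL2L1, which did not pass the test between groups, and the E-box in BBC3 and BID. These matches describe letters in a window and not binding. The BOK start used by RefSeq lies inside the longer BOK gene of the deposited table, chr2:241551424-241574131.

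Across the family, 3 of 10 genes rose in the libraries labelled overexpression, 1 fell and 6 did not pass the test. BAX and BOK, both pore formers, and the BH3-only gene BAD were higher, and the guardian MCL1 was lower. Of the 15046 genes tested, 9.62% rose and 9.49% fell, so 19.1% changed in either direction, and 4 of 10 members did. The median log2 fold change was 0.39 over the 10 members and 0.03 over all genes tested, but 0.00 and 0.05 in a fit that adjusts for length and GC content. On the scale of depth-normalised counts (CPM), 5 members were higher in every library labelled overexpression than in any control (BAX, BOK, BAD, BID and BBC3), against 21.8% of all genes. MCL1 was lower without overlap, against 20.9% of all genes, and 4 members overlapped. In bulk RNA, fewer cells with a transcript and less of it per cell cannot be told apart.

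**Figure D1:**
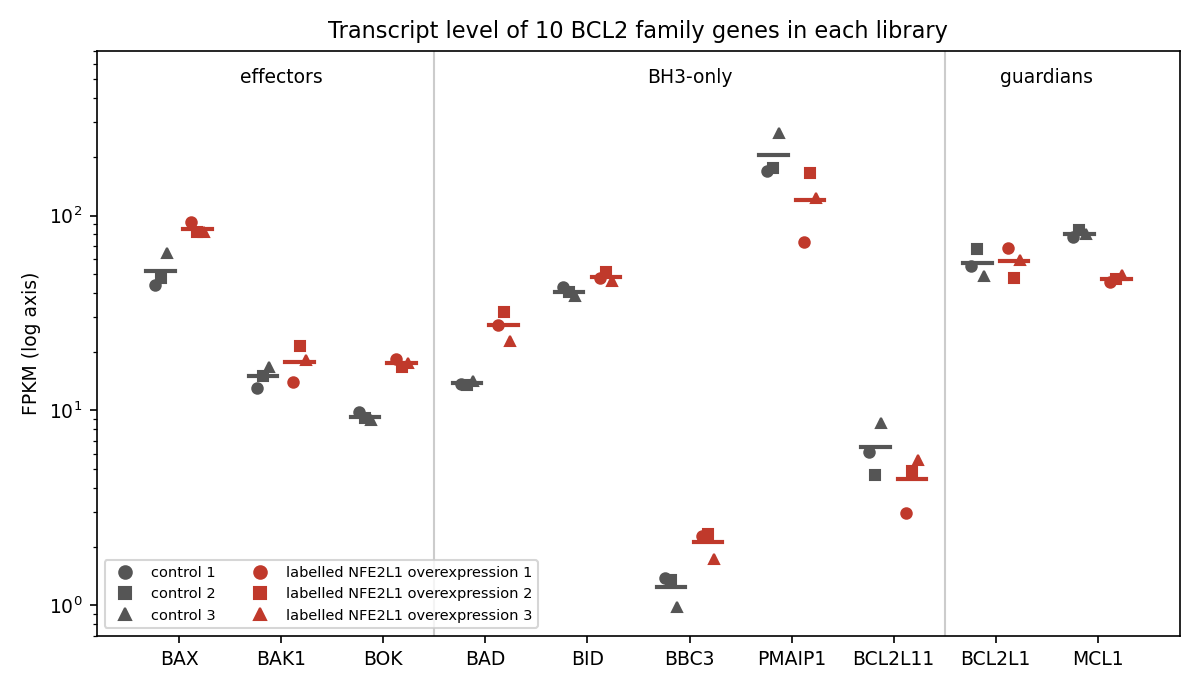
FPKM on a log axis for the 10 genes, with each library as a point (grey for control, red for labelled overexpression, shape for the library number) and group means as bars. BAX, BOK, BAD, BID and BBC3 lie higher and MCL1 and PMAIP1 lower in the red libraries without overlap in FPKM. Of these, BID, BBC3 and PMAIP1 did not pass the test, and PMAIP1 spreads from 73.0 to 264.4 FPKM. The share of all genes without overlap in FPKM was not counted, and FPKM sums differed between the groups.

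Gene length and GC content moved with these values. Over all tested genes the log2 fold change ran with gene length (Spearman rho -0.54) and with GC content (0.55), a description across genes that share libraries. BAX and BAD are short and rich in GC, MCL1 is long and poorer in GC, and in a fit with a smooth offset for both properties 0 members passed in either direction, against 1.58% of all genes. That fit gave an unadjusted p under 0.05 for 1 of 10 members, BOK, and for 19.7% of all genes. Leaving out control 1 or control 2 also ended all 4 calls, with adjusted p from 0.0694 to 0.101, and over all genes these fits called 1 and 0. The direction of the 4 genes was the same in all 18 alternatives.

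The effectors come first. BAX, the cytosolic effector that moves to mitochondria when activated (ENSG00000087088, chr19:48954815-48961798), had 44.1, 47.9 and 64.6 FPKM in controls 1 to 3 and 92.6, 82.2 and 82.1 FPKM in overexpression libraries 1 to 3. The lowest library labelled overexpression exceeded the highest control, and control 3 stood above the other controls. BAX rose by a log2 fold change of 0.86 ± 0.19 (SE, 95% interval 0.44 to 1.27, adjusted p = 0.0185). The value was 0.13 once the offset was added (adjusted p = 0.708), and 0.42 with limma on FPKM rescaled to a common sum (adjusted p = 0.0651). The trend that the offset removes amounted to 0.75 for a gene of 0.795 kb and 58.9% GC such as BAX.

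BOK, an effector kept low by degradation and bound to calcium channels of the endoplasmic reticulum (ENSG00000176720), had 9.77, 9.13 and 8.89 FPKM in controls. In overexpression libraries 1 to 3 it had 18.4, 16.8 and 17.5 FPKM, so both groups were tight and well apart. Its log2 fold change of 1.06 ± 0.16 (SE, 0.69 to 1.43, adjusted p = 0.0109) had the smallest p of the 10 genes. With the offset its value was the largest of the 10 members, 0.51 (0.08 to 0.93), with an adjusted p of 0.181. BOK is 2.63 kb long, near the 2.92 kb median of all tested genes, with 66.0% GC against a median of 47.9%. The antisense gene BOK-AS1 shares 7.41% of the exon bases of BOK and had 0 to 5 reads per library.

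BAK1, the effector that sits in the outer membrane before any signal (ENSG00000030110), had 13.1, 15.1 and 16.8 FPKM in controls and 14.0, 21.4 and 18.1 FPKM in overexpression libraries 1 to 3. The groups overlapped, with overexpression library 1 inside the control range. Its log2 fold change was 0.40 ± 0.21 (SE, -0.09 to 0.88, adjusted p = 0.217), and it was -0.04 with the offset. GENCODE 29 lists the processed pseudogenes BAK1P1 and BAK1P2, which could share reads with BAK1, so its level is uncertain to that extent. BAX made up 65.9% to 71.5% of the summed effector FPKM in controls and 68.3% to 74.1% in the other group, so BAX was the most abundant effector transcript in all 6 libraries.

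Of the 5 BH3-only genes, 1 rose and 0 fell, a share of 20.0% against 19.1% of all genes, and their median log2 fold change was 0.39, or 0.00 with the offset. BAD, which binds BCL-XL and is held in the cytosol by 14-3-3 proteins while survival kinases phosphorylate it (ENSG00000002330), had 13.6, 13.5 and 14.2 FPKM in controls and 27.6, 32.2 and 22.8 FPKM in overexpression libraries 1 to 3. The controls were nearly equal and the other group was spread, with no overlap. Its log2 fold change of 1.14 ± 0.21 (SE, 0.67 to 1.62, adjusted p = 0.0136) was the largest of the 10 members. With the offset it was 0.14 (adjusted p = 0.698), and the trend itself was 0.98 for a gene of 0.929 kb and 66.3% GC. BAD shares 404 exon bases, 23.7% of its own, with GPR137 on the opposite strand. The strand setting of the authors' counting is not given in the sources used here, so reads of BAD and GPR137 may not be fully separated. GPR137 had 237, 246 and 324 reads in controls and 204, 554 and 290 in the other group (log2 fold change 0.52).

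BID links death receptors to mitochondria once caspase 8 cuts it (ENSG00000015475). It had 42.8, 40.6 and 38.6 FPKM in controls and 47.7, 51.4 and 46.3 FPKM in overexpression libraries 1 to 3. The groups did not overlap, but the difference was small, with a log2 fold change of 0.39 ± 0.15 (SE, 0.05 to 0.74), and the adjusted p of 0.0978 did not pass. The value stayed at 0.29 with the offset, and the trend for a gene of 2.18 kb and 49.7% GC was 0.10.

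BBC3, which binds every guardian (ENSG00000105327), was the least abundant member, with 36 to 101 reads per library. It had 1.38, 1.36 and 0.98 FPKM in controls and 2.28, 2.33 and 1.73 FPKM in overexpression libraries 1 to 3. No library labelled overexpression fell in the control range. Its log2 fold change of 0.91 ± 0.30 (SE, 0.24 to 1.58) had an adjusted p of 0.0609 with edgeR and 0.0341 with DESeq2, and the authors' deposited table gives 0.87 with an adjusted p of 0.0427. With the offset the value was 0.00 (-0.70 to 0.70), and BBC3 has the highest GC content of the 10 genes, 69.7%.

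PMAIP1, which binds MCL1 and marks it for destruction (ENSG00000141682), was the most abundant member in controls, with 169.3, 175.7 and 264.4 FPKM. Overexpression libraries 1 to 3 had 73.0, 166.1 and 122.7 FPKM. The groups just missed each other in FPKM, but in CPM they overlapped, with 309.7 to 471.5 in controls against 144.6, 346.5 and 235.7. For PMAIP1 the log2 fold change was -0.60 ± 0.30 (SE, -1.28 to 0.08, adjusted p = 0.188), and without overexpression library 2 it was -0.96 (adjusted p = 0.0232). With the offset it was -0.33.

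BCL2L11, a potent activator of the effectors (ENSG00000153094), had 6.14, 4.69 and 8.61 FPKM in controls and 2.98, 4.87 and 5.56 FPKM in overexpression libraries 1 to 3. The groups overlapped, and the log2 fold change of -0.39 ± 0.29 (SE, -1.05 to 0.26) had an adjusted p of 0.36. With the offset it was 0.00 (-0.74 to 0.74). The opposite-strand gene MIR4435-2HG shares 10.9% of the exon bases of BCL2L11. MIR4435-2HG had 362, 343 and 174 reads in controls and 304, 197 and 258 in overexpression libraries 1 to 3. BCL2L11 had 256 to 870 reads per library, and reads of the pair may not be fully separated.

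The guardians differed from each other. MCL1, a guardian with a short-lived protein on which many cells depend (ENSG00000143384, chr1:150560895-150579738), had 78.0, 84.0 and 80.2 FPKM in controls and 45.4, 47.3 and 49.4 FPKM in overexpression libraries 1 to 3. Both groups were narrow and far apart. The difference on the log2 scale was -0.63 ± 0.13 (SE, -0.93 to -0.33, adjusted p = 0.0179). The call was also lost without overexpression library 3, at an adjusted p of 0.0509. With the offset it was -0.29 (-0.60 to 0.02, adjusted p = 0.281), and the trend was -0.33 for a gene of 3.95 kb and 45.1% GC.

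BCL2L1 (ENSG00000171552) had 54.9, 67.5 and 48.9 FPKM in controls and 68.5, 48.0 and 58.8 FPKM in overexpression libraries 1 to 3. The groups covered nearly the same range. Its log2 fold change of 0.17 ± 0.19 (SE, -0.25 to 0.58, adjusted p = 0.554) leaves room for a change of either sign, and it was -0.08 with the offset. The antisense gene ABALON overlaps 43.0% of the exon bases of BCL2L1, but had only 1 to 6 reads per library.

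**Figure D2:**
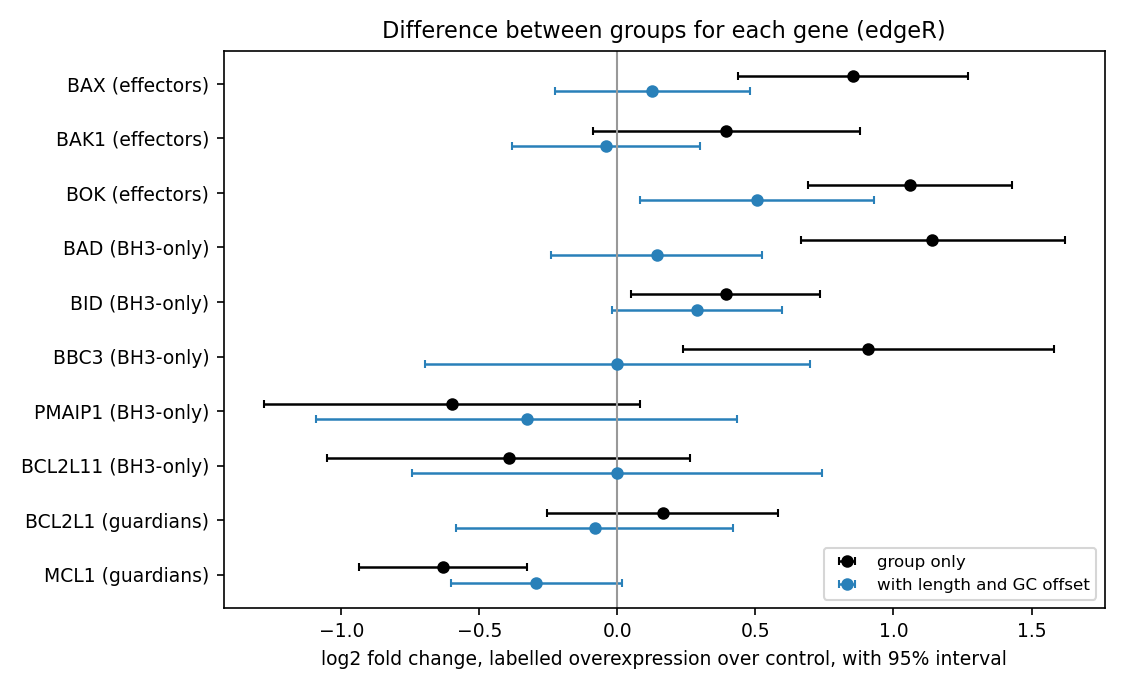
Log2 fold change of each gene (labelled overexpression over control) with its 95% interval from edgeR, without (black) and with (blue) the length and GC offset. The black intervals of BAX, BOK, BAD, BID, BBC3 and MCL1 exclude 0, and with the offset only that of BOK does.

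**Figure D3:**
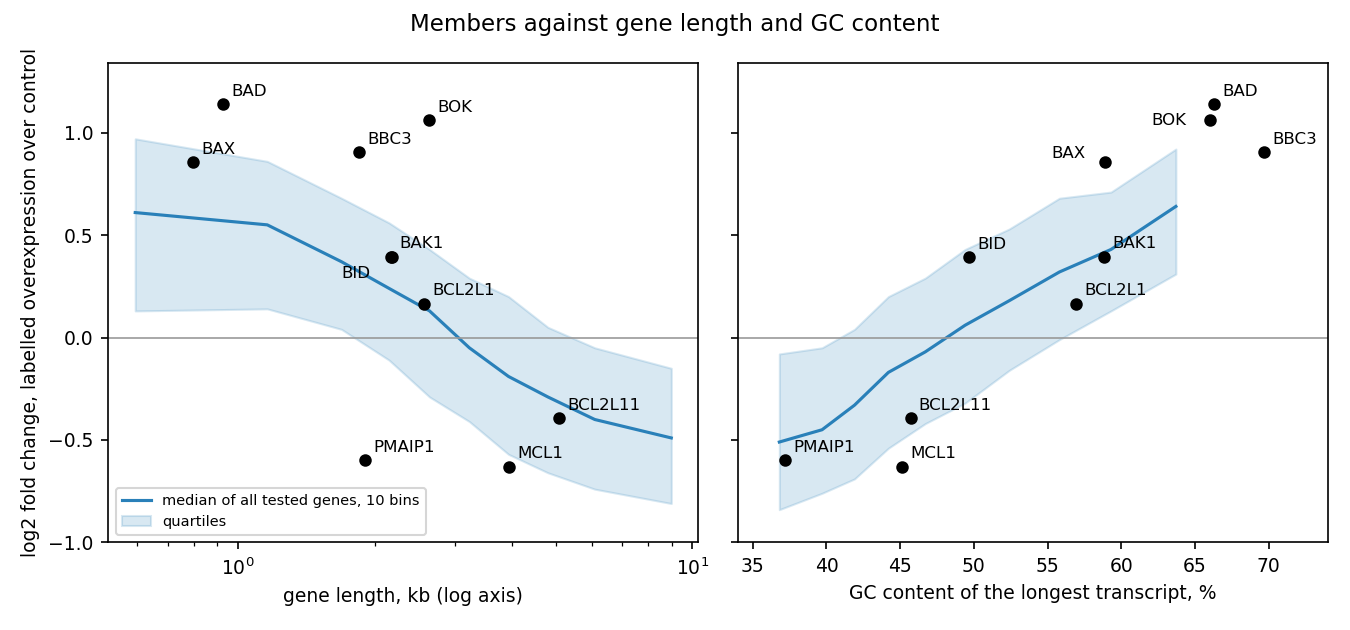
Log2 fold change of the 10 genes (points) against gene length in kb (left, log axis) and GC content in percent (right), with the median (line) and quartiles (band) of all tested genes in 10 bins. The line falls from 0.61 in the shortest genes to -0.49 in the longest and rises from -0.51 at the lowest GC content to 0.64 at the highest.

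Within controls, the order of FPKM levels was PMAIP1, MCL1, BCL2L1, BAX, BID, BAK1, BAD, BOK, BCL2L11 and BBC3. The ranges of neighbours were separate except for BCL2L1 with BAX and for BAK1 with BAD. In the libraries labelled overexpression the order was PMAIP1, BAX, BCL2L1, BID, MCL1, BAD, BAK1, BOK, BCL2L11 and BBC3. There the ranges overlapped for PMAIP1 with BAX, BCL2L1 with BID, BID with MCL1, and BAK1 with BOK. MCL1 thus had rank 2 in controls at a mean of 80.7 ± 3.06 FPKM (SD, n = 3) and rank 5 in the other group at 47.4 ± 1.97 FPKM. BAX had rank 4 at 52.2 ± 10.9 FPKM and rank 2 at 85.6 ± 6.03 FPKM. FPKM sums differed between groups, with 484861 to 519524 in controls and 605615 to 626091 in the other libraries, so the order is given within each group.

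A ratio of 2 genes inside a library does not depend on how libraries are scaled. The BAX:MCL1 ratio of FPKM was 0.566, 0.570 and 0.806 in controls 1 to 3 and 2.04, 1.74 and 1.66 in overexpression libraries 1 to 3. MCL1 was thus the more abundant transcript of the pair in every control, and BAX in every library of the other group. The means were 0.647 ± 0.137 and 1.81 ± 0.199 (SD, n = 3), a log2 difference of 1.50, which was 0.42 with the length and GC offset. The BAX:BCL2L1 ratio was 0.804, 0.710 and 1.32 in controls and 1.35, 1.71 and 1.40 in the other group. Control 3 lay just under the other group here, and the log2 difference of 0.70 was 0.22 with the offset.

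Against MCL1, BAK1 went from a mean ratio of 0.186 to 0.376, BOK from 0.115 to 0.371 and BAD from 0.171 to 0.583. BID went from 0.505 to 1.02 and BBC3 from 0.0154 to 0.0448, each of these ratios without overlap. All of them share MCL1, which was itself lower, and how many of all genes would separate against MCL1 was not counted. With the offset the log2 fold changes of these genes were -0.04, 0.51, 0.14, 0.29 and 0.00, and that of MCL1 was -0.29. PMAIP1:MCL1 was 2.52 ± 0.675 and 2.53 ± 0.952 (SD, n = 3) and BCL2L11:MCL1 was 0.0806 and 0.0937, and both overlapped. Against BCL2L1, the ratios of BAX, BOK, BAD and BBC3 were higher without overlap, and those of the other 4 overlapped. How many of all genes would separate against BCL2L1 was not counted either. With the offset the log2 fold changes of BAX and BCL2L1 were 0.13 and -0.08. MCL1:BCL2L1 was 1.42, 1.25 and 1.64 in controls and 0.663, 0.986 and 0.840 in overexpression libraries 1 to 3, so BCL2L1 exceeded MCL1 per length in 3 of 3 libraries labelled overexpression and in 0 of 3 controls. PMAIP1:BAX was 3.84, 3.67 and 4.10 in controls and 0.789, 2.02 and 1.50 in the other group. The log2 differences of MCL1:BCL2L1 and PMAIP1:BAX were -0.80 and -1.53, and neither was recomputed with the offset. The trend that the offset removes was -0.33 for MCL1, 0.27 for BCL2L1, -0.23 for PMAIP1 and 0.75 for BAX. With the offset the log2 fold change of PMAIP1 was -0.33. None of the ratios given here carries a test of its own, since the genes were chosen with results of these data known.

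**Figure D4:**
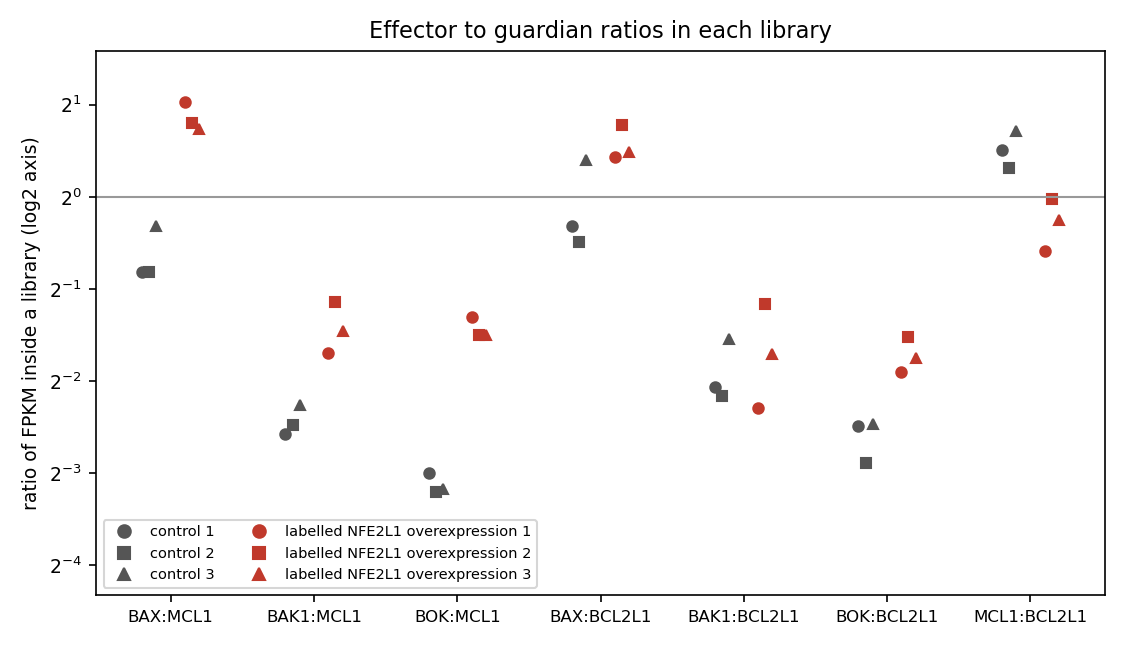
FPKM of each effector over each guardian, and of MCL1 over BCL2L1, inside each library on a log2 axis, with a grey line at 1. BAX:MCL1 lies under 1 in all 3 controls and over 1 in all 3 libraries labelled overexpression, while BAK1:BCL2L1 overlaps.

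Summed by role, the effectors came to 67.0, 72.1 and 90.3 FPKM in controls and 125, 120.4 and 117.7 FPKM in overexpression libraries 1 to 3. These sums carry the difference in FPKM totals between groups, and the shares do not. Sums and shares both keep the trend with gene length and GC content, which was 0.75 for BAX and -0.33 for MCL1. Neither was recomputed with the offset. The guardians came to 132.9, 151.5 and 129.1 FPKM and to 113.9, 95.3 and 108.2 FPKM. Effectors were therefore 33.5%, 32.3% and 41.2% of the effector and guardian FPKM in controls and 52.3%, 55.8% and 52.1% in the other group. The BH3-only sum overlapped between groups, and PMAIP1 was 72.6% to 80.9% of it in controls and 47.6% to 64.7% in the other group. Without PMAIP1 the BH3-only sum was 62.1 ± 1.88 FPKM in controls and 82.5 ± 7.39 FPKM in the other libraries (SD, n = 3).

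The genes whose CPM profile over the 6 libraries was most like that of each called member were sought among 12337 protein-coding genes. The measure was the Euclidean distance between log2 CPM profiles, each centred and scaled to unit sum of squares. For BAX they were TMEM199 (distance 0.0679), ANTKMT (0.0697) and RGS19 (0.0715), and for BOK they were ATP5MC1 (0.0481), LSM7 (0.0612) and RPS4X (0.0767). BAD was closest to COX4I1 (0.0422), DPH7 (0.0483) and FBXL15 (0.0589). MCL1 was closest to IL13RA1 (0.0777), LIF (0.0812) and VSTM4 (0.101).

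Of 12 further BCL2 family genes tested, 1 rose and 0 fell at the adjusted threshold and 1 had an unadjusted p under 0.05. That is 8.33% for either count, against 19.1% and 35.8% of all genes, and the median log2 fold change was 0.04. BCL2L12, a divergent member of the family, had 21.6, 21.0 and 26.5 FPKM in controls and 34.2, 51.7 and 36.4 FPKM in overexpression libraries 1 to 3. Its log2 fold change was 0.97 (adjusted p = 0.0223), and 0.25 with the offset. Without control 1, 2 or 3 it did not pass, in fits that called 1, 0 and 1373 genes over all. Without overexpression library 2 the list had 4 calls, and that fit called 3649 genes over all, against 2876 with all 6 libraries. BNIP3, a mitophagy receptor induced by low oxygen, was the most abundant of these genes and varied inside groups, at 125.3, 55.3 and 62.2 FPKM in controls and 57.4, 109.5 and 66.7 FPKM in the other group. BNIP3L, its close relative, had a log2 fold change of -0.26, the autophagy gene BECN1 0.03 and BCL2L13, another mitophagy receptor, 0.04, and none passed. BCL2L14 was not analysed here.

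A list of stress and cell cycle regulators held inducers of BH3-only genes together with genes that are not, such as MDM2 and CDKN1A. Of its 10 tested genes, 0 passed edgeR's test and 3 (30.0%) had an unadjusted p under 0.05, against 35.8% of all genes. DESeq2 called 1 of them and limma on log2(FPKM + 1) called 0. Over all genes DESeq2 called 3941 and that limma fit 3225, against 2876 with edgeR. E2F1, a cell cycle factor, had the largest log2 fold change of the list, 0.83 ± 0.29 (SE), with an adjusted p of 0.0785 with edgeR and 0.0462 in the authors' deposited table. MDM2, a ubiquitin ligase, and CDKN1A, an inhibitor of the cell cycle, had log2 fold changes of -0.39 ± 0.23 and 0.15 ± 0.39 (SE). The stress factors ATF4 and DDIT3 (CHOP) had 0.41 ± 0.17 and 0.76 ± 0.28, with adjusted p of 0.112 and 0.0895. DDIT3 stood at 23.8, 40.6 and 46.1 FPKM in controls and 72.1, 39.3 and 59.4 FPKM in overexpression libraries 1 to 3, so its groups overlapped.

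Of all 69 network genes tested, 5 rose and 5 fell, with a median log2 fold change of -0.13. The 10 calls are 14.5% of the list, under the 19.1% of all genes tested. Among 14 BAD kinases and 14-3-3 genes, 2 rose: PIM3, a survival kinase, by 0.82 and SFN, which encodes 14-3-3 sigma, by 1.07. In the death receptor arm that leads to BID, the adaptor FADD rose by 0.72 and the receptor FAS fell by 0.72, with 6 genes not passing. With edgeR, 0 of the 8 genes that control MCL1 turnover passed (1 at an unadjusted p under 0.05), as did 0 of 5 BOK partners (3) and 0 of the 2 dynein light chains that anchor BIM (1). DESeq2 called 1, 2 and 0 genes of these lists, and limma 0, 1 and 0. Both called more genes than edgeR over all genes, 3941 and 3225 against 2876. In the authors' deposited table the adjusted p was 0.0236 for UBE2S, a ubiquitin-conjugating enzyme of the turnover list, and 0.0367 and 0.0343 for the calcium channels ITPR2 and ITPR3 of the BOK list.

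At the outer membrane and in the fusion and fission machinery, the import receptor TOMM22 rose by 0.76, while the fusion GTPases MFN1 and OPA1 fell by 0.92 and 1.12. OPA1, which also keeps cristae closed, had 33.9, 30.5 and 23.4 FPKM in controls and 13.3, 9.78 and 14.0 FPKM in overexpression libraries 1 to 3, with no overlap. Downstream of the pore, the apoptosome scaffold APAF1 fell by 1.14 and the inhibitor of apoptosis BIRC2 by 1.01, and the IAP-binding protease HTRA2 rose by 0.68. APAF1 had 8.31, 9.11 and 6.88 FPKM in controls and 3.88, 2.14 and 4.08 FPKM in the other group. CYCS and CASP9, its partners in the apoptosome, had log2 fold changes of 0.09 and -0.04 and did not pass. With the length and GC offset 1 of the 69 network genes passed, against 238 of all 15046 genes tested (1.58%). It was YWHAB, which encodes 14-3-3 beta, at 0.77 (adjusted p = 0.0480). Without control 1 or control 2 no network gene passed, and over all genes these fits called 1 and 0.

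**Figure D5:**
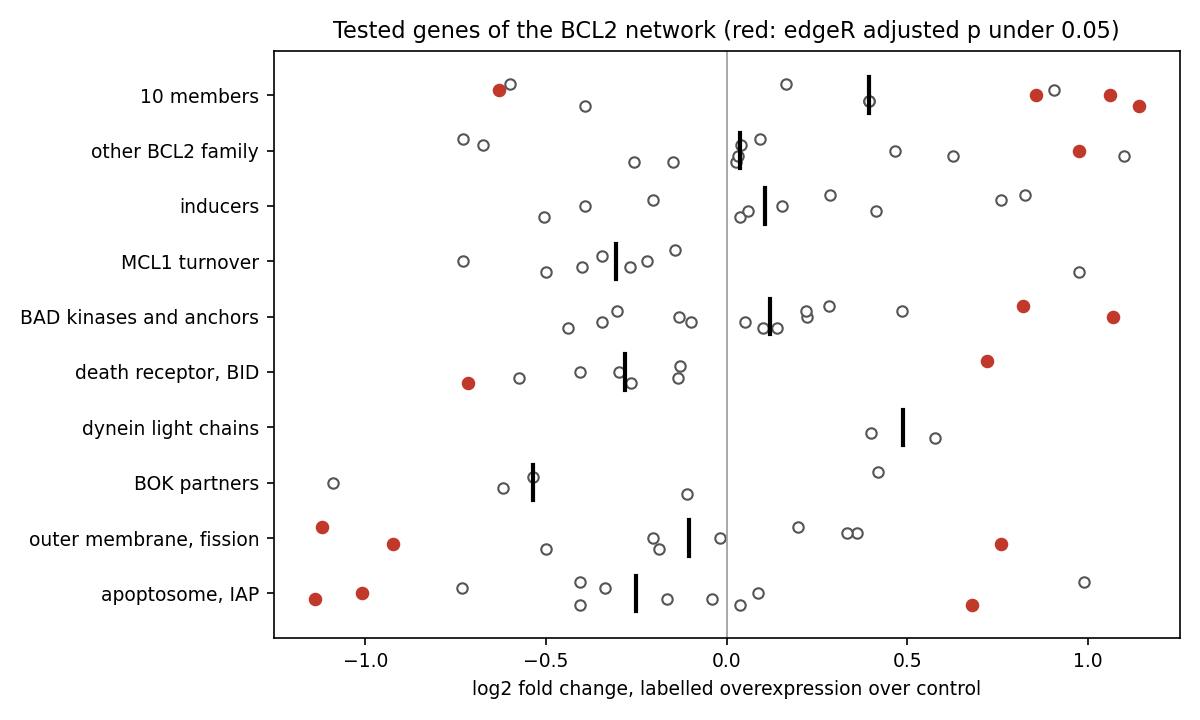
Log2 fold change of every tested gene by list (red for an edgeR adjusted p under 0.05, open for not passing, black bars for the list medians; vertical position inside a list carries no meaning). The 10 members have 4 red points, 3 of them above 0, and the network lists have 10, with 5 on each side.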

How the data were processed

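Per the labels' protocols, a stranded mRNA kit was used. Trimmomatic 0.36 and the build GRCh38 are named in the submitters' processing notes. The aligner, the counter and its strand setting are not given in the sources. The authors deposited raw read counts and FPKM per gene and library, and log2 fold changes with adjusted p-values whose test is likewise not given. No row has fewer than 10 counts over the 6 libraries. Counts with filterByExpr and TMM scaling were tested with edgeR 4.0.16 (R 4.3.3, glmQLFit and glmQLFTest, group alone), with Benjamini-Hochberg adjustment over 15046 genes at 0.05. Depth was 16865460 to 23458333 counts per library, and the biological coefficient of variation was 0.249.

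Gene length is the ratio of count to FPKM, and GC content that of the longest GENCODE 29 transcript, available for 98.45% of rows. The offset was fitted per library as smooths of length and GC content (mgcv 1.9.3). Other alternatives were RLE factors, library totals, no filter, FPKM of at least 5 in 3 libraries, DESeq2 1.42.0, limma 3.58.1 on log2(FPKM + 1), log2(FPKM + 0.1) and FPKM rescaled to a common sum, length alone, a block by replicate number, and each library left out in turn. The members and lists were chosen with earlier results of these data known. All 10 members are named, as are other family genes that passed or were among the 5 most abundant (BNIP3, BNIP3L, BECN1, BCL2L12 and BCL2L13), network genes that passed, and MDM2, CDKN1A, DDIT3, ATF4, APAF1, CYCS and CASP9. A further gene that the rule takes is not reported here. Other named genes were chosen after their values were seen.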

Additional observations from a re-analysis of the deposited data

How the results depend on the processing

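Of 179 log2 fold changes of the members under 18 alternatives, 172 kept their direction and 7 reversed. BAK1 was -0.064 with rescaled FPKM, -0.04 with the length and GC offset and -0.044 with the replicate block and that offset. BCL2L1 was -0.269, -0.082 and -0.094 in the same fits, and BID was -0.051 with rescaled FPKM, which moved the median of all genes to -0.35 and the calls to 533 up and 4170 down. Relative to that median, BAK1, BID and BCL2L1 were above it. Library totals moved the median to -0.11, with 994 up and 1984 down, and log2(FPKM + 0.1) to -0.12, with 1163 up and 1913 down. For log2(FPKM + 1) these were -0.098, 1198 and 2027.

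Members higher numbered 0 with the length and GC offset, with the replicate block and with both, 1 with length alone (BOK) and 0 to 3 when 1 library was left out. Members lower numbered 2 with rescaled FPKM (MCL1 and PMAIP1), 0 with either offset, with the block and with both, and 0 to 2 when 1 library was left out. Other family calls went from 1 to 3 with rescaled FPKM, to 0 with either offset, with the block and with both, and to 0 to 4 when 1 library was left out. Network calls went from 10 to 16 with DESeq2, which called 3941 genes over all against 2876 with edgeR, and to 28 with rescaled FPKM. They were 1 with the length and GC offset, 4 with length alone, 0 with the block and 0 with the block and offset. When 1 library was left out they were 0 to 18. Over all genes the calls were 238 with the length and GC offset (167 up and 71 down) and 1035 with length alone (574 up and 461 down). They were 4703 with rescaled FPKM, 0 with the block, 0 with the block and offset, and 0 to 3649 when 1 library was left out. The log2 fold change of NFE2L1 was 0.25 to 1.14 when 1 library was left out. The log2 difference of BAX:MCL1 was 0.419 with the offset, and that of BAX:BCL2L1 0.218. The causes were not tested.

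The labels do not say whether same-numbered libraries share anything beyond the number. Their deviations from the group means correlated at 0.01, -0.51 and 0.09. Control 2 with overexpression library 1 had 0.60, control 3 with overexpression library 2 had 0.38 and control 3 with overexpression library 1 had -0.50. With 3 libraries in a group these values cannot decide whether a batch was shared. The replicate block gave 0 calls over all genes, with 4413 genes at an unadjusted p under 0.05, against 2876 calls without it. Without control 1 or control 2, 1 and 0 genes were called, with 3962 and 3863 at an unadjusted p under 0.05. BBC3 had the fewest reads of the members, 36 to 101 per library.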

Other observations

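Several stress genes near this family varied as much inside a group as between groups, and they are named after their values were seen. BCL2A1, a guardian induced by NF-kappaB, had 17.7, 2.92 and 4.85 FPKM in controls and 2.81, 27.3 and 4.69 FPKM in overexpression libraries 1 to 3. It was thus high in control 1 and overexpression library 2 alone, the same libraries in which BNIP3 was highest. ATF3, an early stress factor, had 26.8, 23.8 and 70.5 FPKM in controls and 12.3, 64.8 and 33.3 FPKM in overexpression libraries 1 to 3. CDKN1A, an inhibitor of the cell cycle, had 40.0, 44.9 and 82.1 FPKM and then 31.8, 86.4 and 47.9 FPKM. JUN had 68.6, 61.5 and 85.9 FPKM and then 45.2, 91.7 and 65.9 FPKM. For ATF3, CDKN1A and JUN, overexpression library 1 was the lowest of all 6, and control 3 and overexpression library 2 were the highest pair. PMAIP1 too was lowest of all 6 in overexpression library 1, and highest within its group in control 3 and in overexpression library 2.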
